A study of Mus musculus with 4 samples.

Results

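Hepatocyte growth factor (HGF), its receptor Met and the proteins that switch HGF on were followed in sorted KSP-positive and KSP-negative cells. The 10 genes Hgf, Met, Hgfac, Spint1, Spint2, St14, Hpn, Gab1, Mst1 and Mst1r were named for their place in this pathway, and every probe set that the array annotation assigns to 1 of them alone was read, 16 probe sets in all of 45037 on the array. They are 10 of 18193 genes with a probe set of their own. KSP is kidney specific protein, a cadherin encoded by Cdh16. All 4 samples descend from CAG-GFP EB3, a line of mouse ES cells of strain 129/Ola that carries GFP under the CAG promoter, differentiated through embryoid bodies for 18 days with Activin at 10 ng/mL. The KSP-positive samples (n = 2) were live cells positive for both KSP and GFP, and the KSP-negative samples (n = 2) were live GFP-positive cells without KSP signal, each from 2 independent experiments. Both fractions came from 1 ES cell line, and both are mixtures of whatever cells the gate admitted. HGF was not added to these cultures, although the study tested it elsewhere as an inducer of KSP expression, which is the reason for asking how far the sorted cells carry the HGF pathway.

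HGF is secreted as an inactive single chain, mostly by mesenchymal cells and also by macrophages, and acts on neighbouring cells that carry Met, a receptor tyrosine kinase of epithelial cells. Serine proteases cut the single chain into its active form: Hgfac encodes the HGF activator of blood plasma, St14 encodes matriptase and Hpn encodes hepsin, both anchored in the epithelial membrane. Spint1 and Spint2 encode Kunitz-type inhibitors of these proteases. Gab1 encodes the docking protein that carries the signal of Met into the cell. Mst1 encodes macrophage-stimulating protein, a relative of HGF made by the liver, and Mst1r encodes its receptor, a relative of Met. In the kidney, HGF is known for inducing branching tubules in cultured epithelial cells.

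The ligand Hgf had higher signals in KSP-positive cells on its 3 probe sets, whereas the membrane protease St14 and the inhibitors Spint1 and Spint2 had higher signals in KSP-negative cells. Of these, only St14 passed the test, which did not pair the fractions by experiment. The St14 signal was 6.74-fold lower in KSP-positive cells. The brightest Hgf probe set was 6.12-fold higher but did not pass the test, and neither did the other 2, whose folds depend on a floor set on dim signals. Signals of the receptor Met and of the adaptor Gab1 differed by less than 2-fold.

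Values are log2 signals on a scale that gives all 4 arrays the same 75th percentile, with signals under 12.3 raised to that floor. The p-values measure the spread between arrays of the 2 experiments. Levels of different probe sets are not compared, since each has its own probes. Of the members' 16 probe sets, 13 passed a filter on dim probe sets (a mean log2 signal over 5.14). The 3 under it were the only probe sets of Hgfac and Mst1 and 1 of 2 for Met. The 27022 probe sets over the filter were tested with limma, and p was adjusted over all of them by the method of Benjamini and Hochberg, with a call at an adjusted p under 0.05. On the whole array 0.307% of the tested probe sets were called higher and 0.296% were called lower in KSP-positive cells. Among the members' 13 probe sets, 0 were called higher and 1 was called lower, while 3 higher and 5 lower had an unadjusted p under 0.05 from limma, as did 6.7% and 6.41% of the tested probe sets on the array. More than 2-fold differences were seen for 3 higher probe sets, all of Hgf, against 7.38% of the array, and for 5 lower ones of Hpn, Spint1, Spint2 and St14, against 6.95% of the array. Probe sets of 1 gene are not independent of each other. The fit did not pair the fractions by experiment, since no label ties a replicate number to an experiment. With a block for replicate number more members were called, as given at the end. The filter uses the mean of all 4 arrays. Hgf on 1451866_a_at and 1425379_at and Mst1r passed it only through KSP-positive cells (KSP-negative means 4.56, 4.83 and 5.09). Hpn passed it only through KSP-negative cells (KSP-positive mean 4.44). The place of these probe sets in the counts is therefore no support for a difference.

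**Figure D1:**
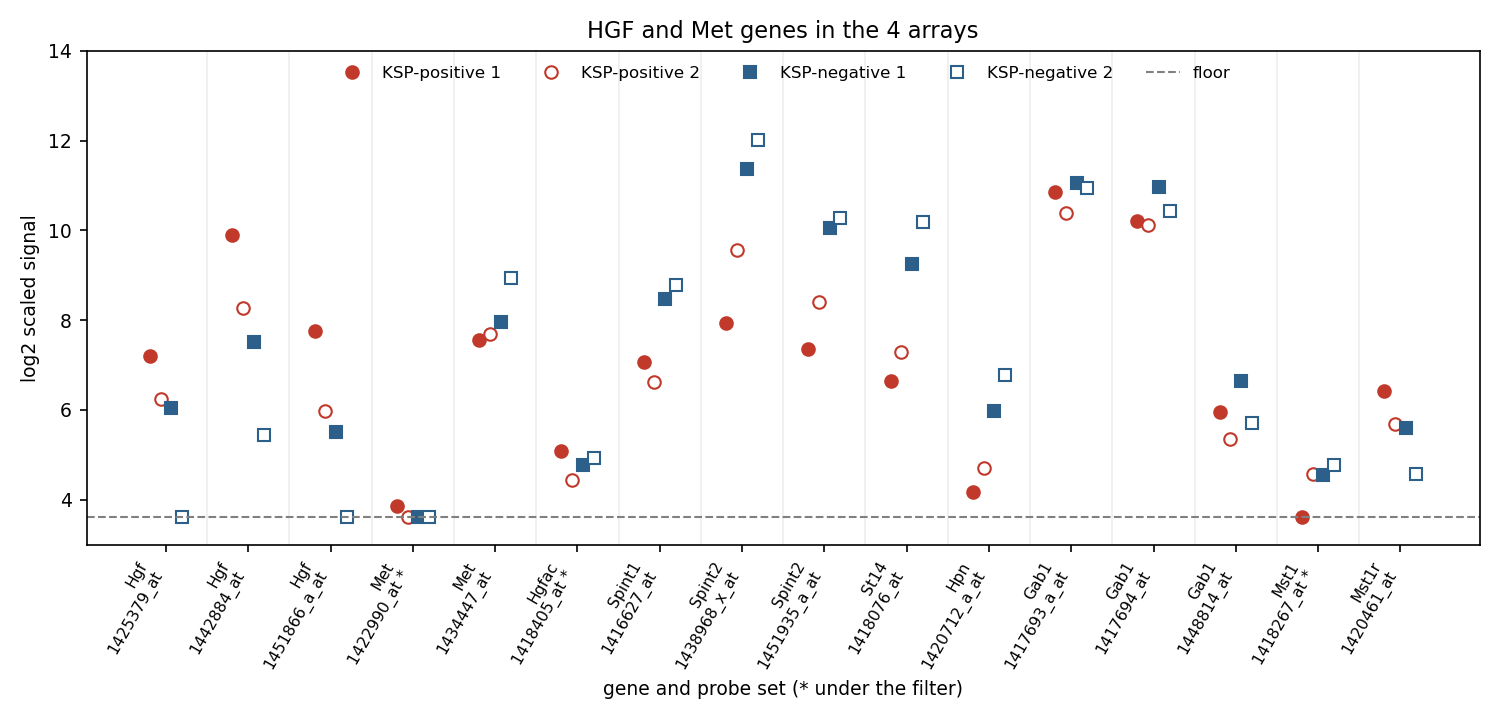
Log2 scaled signal (vertical axis) of the 16 probe sets of the 10 genes (horizontal axis) in each of the 4 arrays, with red circles for KSP-positive and blue squares for KSP-negative cells, filled for replicate 1 and open for replicate 2, and a dashed line for the floor. Both KSP-positive arrays lie above both KSP-negative arrays on the 3 Hgf probe sets and below them for Spint1, Spint2, St14 and Hpn, and levels of different probe sets are not to be compared.

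Hgf was the member with the largest difference towards KSP-positive cells. On 1442884_at, its brightest probe set, log2 signals were 9.91 and 8.28 in KSP-positive replicates 1 and 2 and 7.52 and 5.44 in KSP-negative replicates 1 and 2. Both KSP-positive arrays were higher, but replicates of each fraction lay more than 2-fold apart. The log2 difference was 2.61 (adjusted p = 0.177 from limma, standard error 0.73, 95% confidence interval 0.94 to 4.28), rank 108 among the 27022 probe sets ordered from the highest difference. On 1451866_a_at the KSP-positive arrays had 7.75 and 5.98 and the KSP-negative arrays 5.51 and 3.62, the last at the floor. The difference was 2.30 (standard error 0.79, adjusted p = 0.254). On 1425379_at the values were 7.20 and 6.25 against 6.04 and 3.62, again with KSP-negative replicate 2 at the floor, and the difference was 1.89 (standard error 0.79, adjusted p = 0.352). The Hgf signals thus did not overlap between the fractions on any of the 3 probe sets, and for the last 2 the size of the difference depends on the floor. Without a floor these 2 differences were 3.65 and 2.30, and after raising the floor to the 40th percentile 1.50 and 1.10.
KSP-negative replicate 2 had the lowest Hgf signal on each probe set. Without it the differences on 1442884_at, 1451866_a_at and 1425379_at were 1.57, 1.36 and 0.68 (adjusted p = 0.553, 0.727 and 0.868 from limma). On 1442884_at the difference without KSP-positive replicate 2 was 3.42 (adjusted p = 0.0127), and without KSP-negative replicate 1 it was 3.65 (adjusted p = 0.0306). On 1451866_a_at leaving out KSP-positive replicate 2 gave 3.19 (adjusted p = 0.0277) and leaving out KSP-positive replicate 1 gave 1.42, and on 1425379_at 3.11 (adjusted p = 0.0886) without KSP-negative replicate 1. The actin 3'/5' ratio, a sign of shortened RNA where it is high, was 3.55 in KSP-negative replicate 2 and 2.92 in KSP-positive replicate 1, against 1.79 and 1.80 in the other arrays. The high ratios therefore fell on the lowest and the highest Hgf array.

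Markers of macrophages and of mesenchymal cells, both of which make HGF, were also higher in the KSP-positive arrays. Of 12 macrophage genes 9 rose, 0 fell and 3 did not pass the test, with a median log2 difference of 3.58. Their summed signal was 11806 to 24501 in KSP-positive and 1576 to 1979 in KSP-negative cells. Of the 3 defining genes, Csf1r, the receptor of colony-stimulating factor 1, and Adgre1, the F4/80 antigen, rose (log2 differences 2.70 and 3.18, adjusted p = 0.0284 and 0.0329 from limma), and Cd68 had a difference of 2.39 (adjusted p = 0.0682). None of the 3 lay at the floor in any array. C1qa lay at the floor in both KSP-negative arrays, and C1qc and Fcgr1 in KSP-negative replicate 2, so the sizes of their differences depend on the floor. Over the array 0.428% of the 12849 genes, each read by its brightest probe set, were called higher and 0.459% lower. The marker lists were chosen with earlier results of these data known, so their counts are a description. Of 10 mesenchymal and matrix genes 3 rose, 0 fell and 7 did not pass the test, with a median of 1.13 and a summed signal of 44880 to 62437 against 23760 to 31352. Pdgfrb, the PDGF receptor of pericytes and stroma, had log2 signals of 11.83 and 11.72 against 10.03 and 9.91 (adjusted p = 0.0499 from limma). The collagen gene Col1a1 rose by 2.14 (adjusted p = 0.0439), and Pdgfra had a difference of 1.41 (adjusted p = 0.140). The part of either cell type in the Hgf signal was not tested. In RNA from sorted bulk cells, more cells of a type and more RNA per cell cannot be told apart.

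Both receptors differed by less than 2-fold, with values that moved with single arrays. On 1434447_at of Met the KSP-positive arrays had log2 signals of 7.55 and 7.68 and the KSP-negative arrays 7.97 and 8.95, so that Met did not overlap between fractions but was set apart mainly by KSP-negative replicate 2. Its difference was -0.84 (adjusted p = 0.460 from limma, standard error 0.43, 95% confidence interval -1.83 to 0.15), -0.35 without that array and -1.33 without KSP-negative replicate 1. An interval of this width includes both no difference and a more than 2-fold lower signal. The other Met probe set, 1422990_at, was at the floor in 3 arrays and reached 3.86 in KSP-positive replicate 1, which gives no fold. Mst1r had log2 signals of 6.43 and 5.69 in KSP-positive and 5.60 and 4.57 in KSP-negative cells. Its difference of 0.97 (adjusted p = 0.532, standard error 0.58, 95% confidence interval -0.35 to 2.30) had the sign of Hgf, and KSP-positive replicate 2 lay close to KSP-negative replicate 1. It was 0.46 and 1.49 when KSP-negative replicate 2 or 1 was left out, 0.61 when KSP-positive replicate 1 was, and 0.65 with the floor at the 40th percentile. Mst1, the ligand of Mst1r, was at the floor in KSP-positive replicate 1 and had 4.58, 4.55 and 4.78 in the other arrays, all under the filter.

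**Figure D2:**
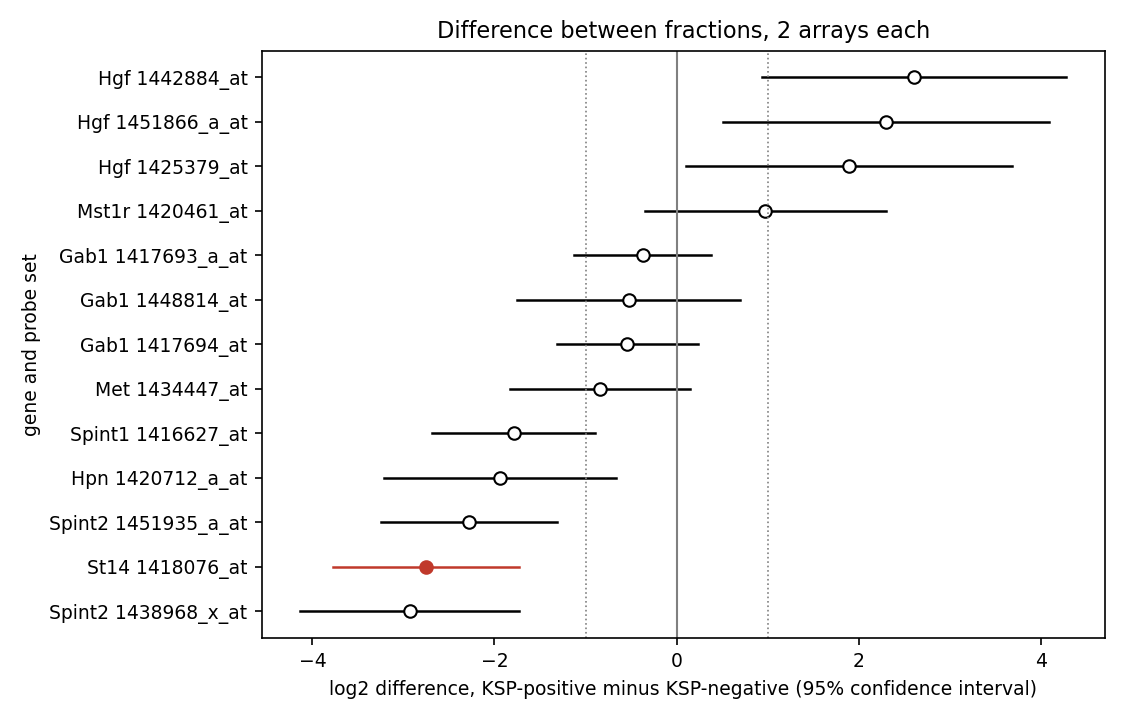
Mean log2 signal of the 2 KSP-positive arrays minus that of the 2 KSP-negative arrays (horizontal axis) of the 13 probe sets that passed the filter (vertical axis), with 95% confidence intervals from limma as bars, red where the adjusted p was under 0.05, and dotted lines at a 2-fold difference. The interval of St14 lies from -3.77 to -1.73, and those of Met, Mst1r and Gab1 include 0.

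Among the proteases that activate HGF, both membrane proteases had lower signals in KSP-positive cells, and the plasma protease was dim throughout. St14 had log2 signals of 6.65 and 7.29 in KSP-positive and 9.25 and 10.20 in KSP-negative cells, 6.97 ± 0.46 (SD, n = 2) against 9.72 ± 0.67 (SD, n = 2). The fractions lay further apart than their replicates, and St14 fell by 2.75 on the log2 scale (standard error 0.45, adjusted p = 0.0431 from limma), rank 100 from the lowest difference. KSP-negative replicate 2 and KSP-positive replicate 1, the arrays with the high actin 3'/5' ratios, had the highest and the lowest St14 signal. The call of St14 lies close to the threshold. It was lost with quantile normalization (adjusted p = 0.0546), after raising the floor to the 40th percentile (0.0516), without the intensity trend (0.0905), without the filter (0.416), by the methods' t-test (0.602) and without KSP-negative replicate 2 (0.230), while the difference stayed between -3.23 and -2.28 in every alternative.
Hpn had log2 signals of 4.17 and 4.71 in KSP-positive and 5.98 and 6.78 in KSP-negative cells. Its difference of -1.94 (standard error 0.56, adjusted p = 0.187 from limma) did not pass the test, although the fractions did not overlap. With the higher floor it was -1.17. The only probe set of Hgfac had 5.09 and 4.43 in KSP-positive and 4.78 and 4.92 in KSP-negative cells, under the filter and with overlap between the fractions.

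The inhibitors of these proteases went the same way as the proteases. On 1438968_x_at of Spint2 the KSP-positive arrays had scaled signals of 245 and 758 on the linear scale and the KSP-negative arrays 2629 and 4104. This was the largest difference towards KSP-negative cells among the members, -2.93 on the log2 scale (adjusted p = 0.0567 from limma, standard error 0.53, 95% confidence interval -4.13 to -1.73), and rank 77 from the lowest on the array. The name of this probe set ends in x, the array maker's sign that some of its probes can bind other transcripts. The second Spint2 probe set, 1451935_a_at, does not carry that sign and had log2 signals of 7.36 and 8.41 against 10.06 and 10.27, a difference of -2.28 (standard error 0.42, adjusted p = 0.0602). Both probe sets had a higher signal in KSP-positive replicate 2 than in replicate 1, by more than 2-fold. Spint1 had 7.07 and 6.62 in KSP-positive and 8.48 and 8.79 in KSP-negative cells, with a difference of -1.79 (standard error 0.39, adjusted p = 0.0972). None of the 3 probe sets passed the test over all probe sets. When 1 probe set stood for each gene and 12849 genes were tested, Spint2, St14 and Spint1 all passed (adjusted p = 0.0127, 0.00848 and 0.0313 from limma), but so did 1.84% of all genes as higher and 1.65% as lower. Without KSP-negative replicate 2 and with all probe sets, the adjusted p was 0.237 and 0.251 for the Spint2 probe sets and 0.435 for Spint1.

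The promoters of Spint1, Spint2 and Hpn, which had lower signals in KSP-positive cells, are shown beside that of Hgf, which had higher ones. The E-box CAGGTG, read on both strands and thus also as CACCTG, is the motif bound by the Snail and Zeb repressors of epithelial genes, and its matches are in capitals. Each sequence holds the 250 bases before the RefSeq start site in build GRCm38.p6, from 5′ to 3′ on the strand of the gene. Where the RefSeq table lists 2 start sites, the one further upstream is shown.
Spint2 (chr7:29281978-29282227, minus strand): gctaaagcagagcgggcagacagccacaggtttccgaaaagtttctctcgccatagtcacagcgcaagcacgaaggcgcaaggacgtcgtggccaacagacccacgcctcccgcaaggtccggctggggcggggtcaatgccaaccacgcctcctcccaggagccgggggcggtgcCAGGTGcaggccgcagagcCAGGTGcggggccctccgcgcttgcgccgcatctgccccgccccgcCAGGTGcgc
Hpn (chr7:31115327-31115576, minus strand): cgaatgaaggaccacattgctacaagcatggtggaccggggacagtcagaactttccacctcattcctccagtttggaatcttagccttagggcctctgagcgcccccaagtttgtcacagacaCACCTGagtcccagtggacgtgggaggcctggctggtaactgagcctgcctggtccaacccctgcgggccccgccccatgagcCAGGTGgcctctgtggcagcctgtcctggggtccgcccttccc
Spint1 (chr2:119237110-119237359, plus strand): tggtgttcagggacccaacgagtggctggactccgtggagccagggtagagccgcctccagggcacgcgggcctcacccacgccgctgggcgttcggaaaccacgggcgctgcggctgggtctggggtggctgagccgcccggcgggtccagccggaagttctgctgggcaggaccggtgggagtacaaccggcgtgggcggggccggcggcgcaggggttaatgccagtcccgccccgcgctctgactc
Hgf (chr5:16553245-16553494, plus strand): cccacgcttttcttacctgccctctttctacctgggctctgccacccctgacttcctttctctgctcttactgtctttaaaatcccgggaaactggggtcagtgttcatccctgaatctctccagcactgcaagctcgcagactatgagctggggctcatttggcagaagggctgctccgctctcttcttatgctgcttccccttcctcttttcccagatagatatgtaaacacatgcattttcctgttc
Spint2 held 3 matches, which begin 74, 55 and 9 bases before the start site, and Hpn held 2, which begin 126 and 43 bases before it. Spint1 and Hgf held 0 within this window. The second start site of Hpn, which is not shown, also held 0 in its 250 bases. Among the promoters not shown, Hgfac, which overlapped between the fractions, held 1 match, and Met, Gab1, Mst1 and Mst1r held 0. At least 1 match was found in 17.2% of the 32851 promoters of the table, searched over the same 250 bases. The GC box GGGCGG, searched on both strands as well, had 3 matches in Spint1, 3 in Spint2, 2 in Hpn and 0 in Hgf, against 32.7% of all promoters with at least 1, and none overlapped an E-box match. Met had 3, and Gab1 and Mst1r had 2 each, although none of these differed by 2-fold. The second start sites of Hpn and Mst1r held 0 GC box matches. The GC content of the 4 windows was 72.8%, 69.6%, 61.6% and 50.8% in the same order. Of the 10 member genes 9 matched the table by symbol, all but St14. A match of letters is a description and not a binding site.

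Markers of epithelium and of undifferentiated cells were lower in the same KSP-positive arrays as St14, Spint1 and Spint2. On the array 0.459% of the 12849 genes were called lower and 0.428% higher. Of 12 epithelial genes 0 rose, 5 fell and 7 did not pass the test, with a median log2 difference of -2.17. Their summed signal was 8444 to 10755 in KSP-positive and 23676 to 30010 in KSP-negative cells. Cdh1 (E-cadherin) and Epcam fell, with log2 differences of -2.41 and -2.98 (adjusted p = 0.0406 and 0.0233 from limma), and the keratin Krt8 had a difference of -0.96 (adjusted p = 0.287). Of 10 genes of pluripotent cells 7 fell, 0 rose and 3 did not pass, with a summed signal of 1425 to 1758 against 12360 to 24548, and Nanog was at the floor in KSP-positive replicate 1. The pluripotency factors Pou5f1, Nanog and Zfp42 fell, with log2 differences of -4.33, -5.40 and -3.88 (adjusted p = 0.0178, 0.0190 and 0.0211 from limma). Of 13 genes of visceral endoderm and liver, where Hpn, Hgfac and Mst1 are also made, 0 were called, although 10 lower genes and 0 higher ones had an unadjusted p under 0.05 from limma, a limit passed by 7.76% (lower) and 8.26% (higher) of the 12849 genes. All 13 differences were negative, with a median of -1.75 and a summed signal of 4431 to 13063 against 20381 to 25395. Afp, Ttr and Alb, which encode secreted liver proteins, had differences of -1.23, -1.60 and -1.65 (adjusted p = 0.423, 0.118 and 0.214 from limma). Which of these cells carried the St14, Spint and Hpn signals was not tested.

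Most of the 13 tested member probe sets had 1 of 2 opposite array orders. The 3 Hgf probe sets and Mst1r had the order KSP-positive 1, KSP-positive 2, KSP-negative 1, KSP-negative 2 from high to low, an order found in 7.83% of all tested probe sets. Met, Hpn, St14 and both Spint2 probe sets had exactly the reverse, found in 9.77%. In either order the arrays with the high actin 3'/5' ratios came first and last. Spint1 and the Gab1 probe sets had neither order. Of the marker genes, 9 of 12 for macrophages and 6 of 10 for mesenchyme had the order of Hgf, and 9 of 12 for epithelium and 8 of 10 for pluripotent cells had the reverse order. None of the 13 genes of visceral endoderm and liver had either. Across the 13 tested member probe sets, 4 were higher and 8 lower without overlap, against 20.9% and 23.2% on the array. These counts include the probe sets of Hgf, Mst1r and Hpn that passed the filter through 1 fraction only. By the smallest root mean square distance over the 4 arrays among 12848 other genes, the patterns nearest to that of Hgf were those of Gbp8, Nell1 and Sema4a (0.297, 0.308 and 0.309 on the log2 scale), and the nearest to Met were Wdr76, Gemin2 and Mars1 (0.00782, 0.0372 and 0.0404). With 4 arrays these distances are a description only.

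Gab1 had lower mean signals in KSP-positive cells on its 3 probe sets, by less than 2-fold, and none passed the test. On 1417693_a_at the KSP-positive arrays had log2 signals of 10.84 and 10.40 and the KSP-negative arrays 11.05 and 10.93, a difference of -0.37 (adjusted p = 0.694 from limma, standard error 0.33, 95% confidence interval -1.12 to 0.38). The other 2 probe sets, 1417694_at and 1448814_at, had differences of -0.54 and -0.52 (adjusted p = 0.555 and 0.744 from limma). Their 95% confidence intervals were -1.31 to 0.23 and -1.75 to 0.70. The intervals of all 3 probe sets include both no difference and a more than 2-fold lower signal. The fractions overlapped on the dim 1448814_at only, which had 5.96 and 5.35 against 6.64 and 5.71.

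Outside the members, the proteases Tmprss2 and Prss8 fell, and the inhibitor Serpinb2 and the partner receptor Fas rose. The pathway lists held 97 genes, of which 86 had a probe set of their own and 73 passed the filter. Of these 73 genes, read by their brightest probe set, 2 rose, 2 fell and 69 did not pass, while 0.428% of the 12849 genes on the array were called higher and 0.459% lower. Without KSP-negative replicate 2, 0 of them passed in either direction. Among 7 tested genes listed as proteases that act on HGF or on its activators, Plaur encodes a receptor instead. Of the 7 genes, 2 fell, 0 rose and 5 did not pass, with a median log2 difference of -1.05. An unadjusted p under 0.05 from limma was found for 0 higher and 3 lower genes, against 8.26% and 7.76% of all genes. Tmprss2, a membrane protease that cuts HGF, fell 5.65-fold (log2 signals 8.04 and 7.56 against 10.15 and 10.44, adjusted p = 0.0332 from limma). Prss8, prostasin, which works together with matriptase, fell by 2.67 (5.30 and 4.90 against 7.61 and 7.92, adjusted p = 0.0453). Plg, the plasmin precursor, had a difference of -2.63 (adjusted p = 0.0959) and Tmprss6 one of -1.05 (adjusted p = 0.401).
Of 5 inhibitors 1 rose, 0 fell and 4 did not pass, with a median of 0.96, while 2 higher and 2 lower genes had an unadjusted p under 0.05 from limma. Serpinb2, the plasminogen activator inhibitor of macrophages and keratinocytes, rose by 3.55 (9.35 and 7.93 against 5.10 and 5.09, adjusted p = 0.0361 from limma). Serpinf2, the plasmin inhibitor made by the liver, had a difference of -2.77 (adjusted p = 0.0585), Serping1, the C1 inhibitor, one of 1.62 (adjusted p = 0.134) and Tfpi one of -0.99 (adjusted p = 0.249).
Of 13 co-receptors and partner receptors of Met, 1 rose, 0 fell and 12 did not pass, with a median of 0.74. At an unadjusted p under 0.05 from limma, 6 were higher and 1 was lower, against 8.26% and 7.76% of all genes. Fas, the death receptor that Met can hold, had 7.26 and 7.07 in KSP-positive cells against 3.70 and 3.62, with 1 KSP-negative array at the floor (log2 difference 3.51, adjusted p = 0.0332 from limma). The ErbB receptors went apart, with a difference of -2.11 for Erbb3 (adjusted p = 0.0514) and 1.28 for Egfr (adjusted p = 0.233), while Nrp1 had 1.11 (adjusted p = 0.192). Downstream of the receptor, 0 of 29 adaptors and effectors passed in either direction, with a median of -0.08 against -0.03 over all genes, and limma gave an unadjusted p under 0.05 for 1 higher and 3 lower genes, against 8.26% and 7.76% of all genes. The smallest p values in that list belonged to Stat3 (difference 1.05, adjusted p = 0.247), Pik3r1 (-1.10, adjusted p = 0.347), Src (-1.14, adjusted p = 0.353) and Pik3cb (-0.93, adjusted p = 0.354). Of 19 genes that limit Met or its signal 0 passed, with a median of 0.23, while 1 higher and 2 lower genes had an unadjusted p under 0.05 from limma. Among them Dcn, decorin of the matrix, which can bind Met, had a difference of 2.41 (adjusted p = 0.0965) and Ptprf, a phosphatase of Met, one of -1.18 (adjusted p = 0.191). Lrig1 had -1.02 (adjusted p = 0.380) and Errfi1 0.75 (adjusted p = 0.430).

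**Figure D3:**
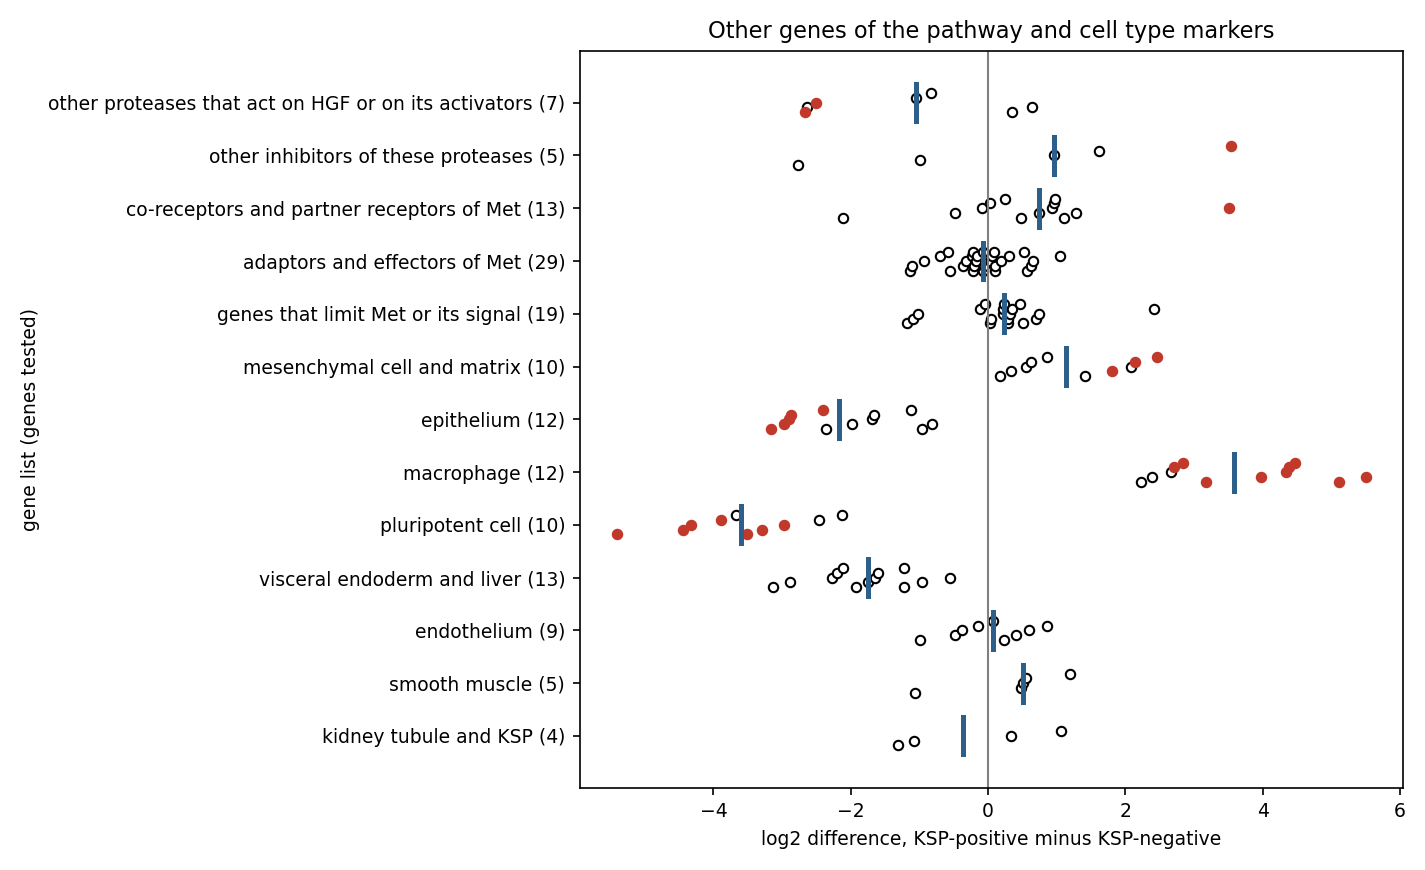
Mean log2 signal of KSP-positive minus that of KSP-negative arrays (horizontal axis, n = 2 each) of every tested gene of 5 pathway lists and 8 marker lists (vertical axis, labelled with how many genes were tested), with red points for an adjusted p under 0.05, open points for the others and blue bars for medians. Adaptors and effectors of Met lie around a median of -0.08, macrophage genes around 3.58 and epithelial genes around -2.17.

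The arrays resembled each other more within a fraction than between fractions. Across tested probe sets, none of which is a replicate, log2 signals correlated at 0.928 and 0.932 within the KSP-positive and KSP-negative cells and at 0.850 to 0.916 between them. Cdh16, the gene of the sorted protein, was close to the filter in both fractions (5.66 and 5.03 against 5.30 and 4.71, adjusted p = 0.857 from limma), Lrp2 (megalin) had a log2 difference of -1.30 (adjusted p = 0.254), Umod was at the floor in all 4 arrays, and the 4 tested genes of kidney tubules and KSP gave 0 calls (1 at an unadjusted p under 0.05). Endothelial genes (9 tested, median log2 difference 0.08) and smooth muscle genes (5 tested, median 0.51) gave 0 calls as well, with 0 and 1 genes at an unadjusted p under 0.05 from limma. The endothelial genes Pecam1, Cdh5 and Kdr had differences of -0.99, 0.24 and 0.41, and the smooth muscle genes Acta2 and Cnn1 had 0.51 and -1.06 (adjusted p = 0.711, 0.936, 0.759, 0.614 and 0.656), with Myh11 under the filter.

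**Figure D4:**
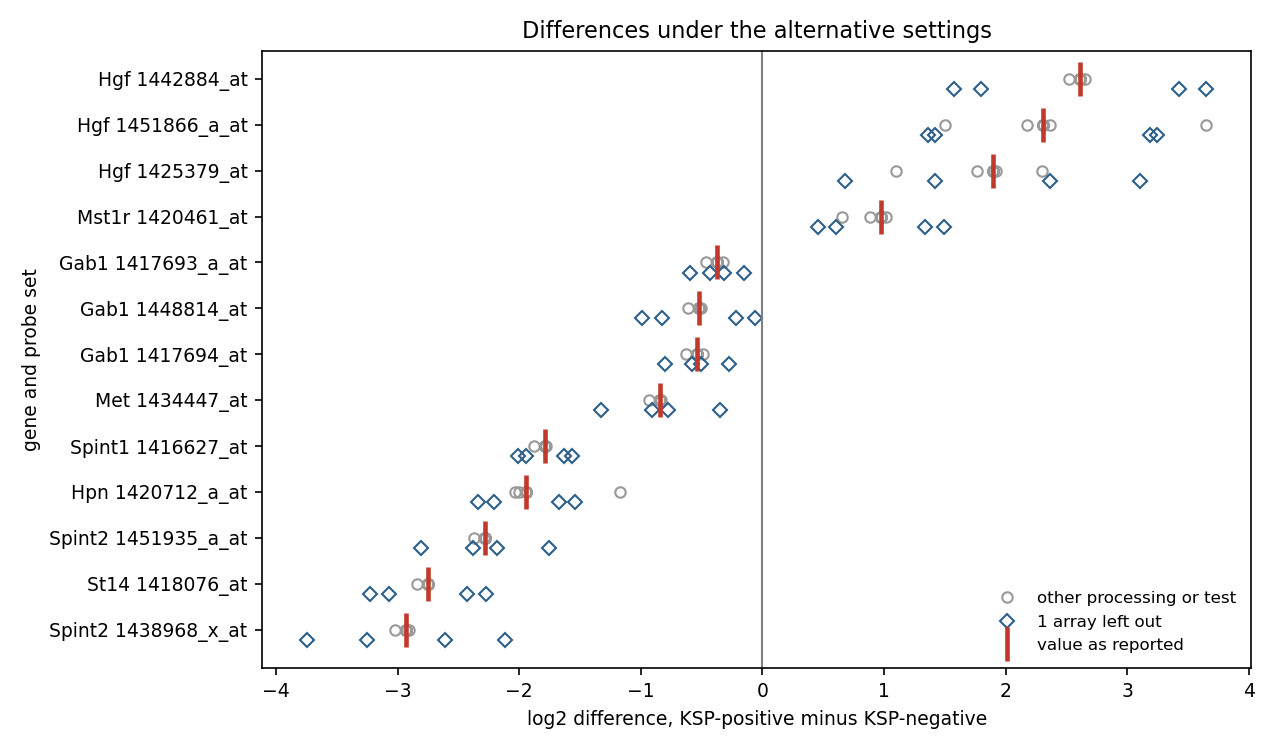
Log2 difference, KSP-positive minus KSP-negative (horizontal axis), of the 13 tested member probe sets (vertical axis), as reported (red bar), with another processing or test (grey circles) and with 1 array left out (blue diamonds). Each probe set stays on its side of 0 in the 15 alternatives where it has a value, and the Hgf probe sets move most, down to 1.57, 1.36 and 0.68 without KSP-negative replicate 2.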

How the data were processed

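The members and the gene lists were chosen with earlier results of these data known. The deposited values are MAS5 signal intensities on a linear scale, 1 per probe set and array, made by the authors from 4 Affymetrix mouse genome arrays after biotin labelling; scaling target and detection calls are not given in the sources used here. Scaling brought the 75th percentile of every array to their mean of 281. Signals under the 20th percentile (12.3) were raised to it, log2 was taken, and probe sets whose mean log2 signal exceeded the 40th percentile were tested (27022 of 45037). Of all probe sets, 34945 are assigned to 1 gene. The fractions were compared per probe set with limma 3.58.1 in R 4.3.3 (empirical Bayes with an intensity trend, two-sided, Benjamini-Hochberg), and an exact permutation test of 2 against 2 arrays cannot go under 0.333. The methods' t-test, a block and 13 other alternatives were tried. All probe sets of the members, the 4 genes of each pathway list with the smallest p, the first 3 genes of marker lists and the 3 nearest patterns were named by rule. Macrophage genes at the floor were named besides. The precision is limited by the number of arrays. The procedure was tested on simulated data with 200 changed probe sets. Log2 changes of 1, 2 and 3 were called for 0%, 51.5% and 94.5% of them. False calls made up 5.5% and 11.3% of the calls at changes of 2 and 3, and the 1 call at a change of 1 was false. A probe set that did not pass the test is therefore not shown to be unchanged. Promoters are from RefSeq.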

Additional observations from a re-analysis of the deposited data

How the results depend on the processing

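The direction of the 13 tested member probe sets was kept in all 15 alternatives where they had a value, but the calls depend on the setting. Members called lower numbered 0 with quantile normalization, the floor at the 40th percentile, no filter, no intensity trend or the methods' t-test, 2 with robust empirical Bayes, 3 on the unscaled deposited values, the filter at the 60th percentile or 1 probe set per gene, and 0 to 3 with 1 array left out. Members called higher numbered 0 to 2 with 1 array left out. Members more than 2-fold higher numbered 4 with quantile normalization, where Mst1r reached 1.02, and 2 to 4 with 1 array left out. They numbered 1 with the filter at the 60th percentile or 1 probe set per gene and 2 without a floor. In these last 3 settings the lower counts reflect Hgf probe sets that were no longer tested, not smaller differences. No label says that a replicate number marks an experiment, and same-numbered arrays deviated together with a correlation of 0.306 across probe sets. With the replicate block 2 members were called higher (Hgf on 1442884_at and 1451866_a_at, adjusted p = 0.00113 and 0.0165 from limma) and 5 lower (St14, Spint1, Hpn and both Spint2 probe sets), and the array had 851 higher and 779 lower. Over the array, calls numbered 181 higher and 241 lower on the unscaled values, 45 and 49 with the higher floor, 236 and 212 with 1 probe set per gene, 29 and 23 without the intensity trend, and 8 to 312 and 3 to 374 with 1 array left out, lowest without KSP-negative replicate 2 and highest without KSP-positive replicate 2. They were 0 without the filter (2132 and 2071 at an unadjusted p under 0.05) and 0 by the methods' t-test (1106 and 1105). Pathway genes called higher and lower numbered 3 and 4 on the unscaled values, 1 and 1 with the higher floor, 1 higher with the filter at the 60th percentile, 3 and 5 with 1 probe set per gene, 1 and 0 without the intensity trend, 4 lower with robust empirical Bayes, 5 and 5 with the block, 0 without the filter or by the t-test, and 0 to 4 each with 1 array left out.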
